A study of Mus musculus with 7 samples.

Results

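The genes of the E proteins and of their Id inhibitors were examined in mouse embryonic fibroblasts (MEFs) and mouse embryonic stem cells (mESCs). The members were chosen by gene symbol and are the 3 E protein genes Tcf3, Tcf4 and Tcf12 and the 4 Id genes Id1, Id2, Id3 and Id4, 7 of the 55484 genes in the count table. All 7 were present once, and all 7 had enough counts to be among the 16580 genes tested. The libraries accompany a comparison of ATAC-seq platforms in the same cell types. There were 4 MEF and 3 mESC libraries, both cell types are labelled with a C57/Bl6 background, and no treatment, time point, embryonic age or culture medium is labelled. The protocol text attached to the samples describes RNA extraction from blood stem cells of young and aged mice, so the extraction of these cells is not given in the sources used here. The study calls its transcriptional data biological replicates. The names of all MEF columns begin with one and the same MEF label and those of all mESC columns with one mESC label, followed by a letter and number that are not explained, and the labels do not say whether libraries of one cell type came from separate embryos or cultures. The p-values measure the spread between these libraries, which may be technical.

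E proteins are basic helix-loop-helix transcription factors that are made in most tissues. They bind the E-box, a DNA element with the letters CANNTG, as pairs with one another or with tissue-restricted partners such as the myogenic and neurogenic factors. Id proteins have a helix-loop-helix without the basic stretch that touches DNA, so an E protein paired with an Id protein does not bind the E-box. Id genes are known as direct targets of bone morphogenetic protein (BMP) signalling through Smad1, Smad5 and Smad4, and in mouse stem cell cultures Id proteins are known to hold back neural differentiation.

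Total counts were 11441278, 7312679, 9176467 and 6528643 for the MEF libraries and 8193825, 8057985 and 7462710 for the mESC libraries, and the values of single libraries follow this order. A value after ± is a standard deviation (SD) over n libraries, and SE is the standard error of a difference. Levels are in CPM, counts scaled to the total of the library. Differences are log2 fold changes of mESCs relative to MEFs from edgeR's quasi-likelihood test with TMM scaling, and a gene counts as changed at a Benjamini-Hochberg adjusted p under 0.05 over all genes tested. TMM scaling moved the median difference of all genes from 0.32 to 0.04 on the log2 scale. The cell type labels were checked with marker genes. All 10 fibroblast markers were lower in mESCs, and their summed level was 21161 to 36482 CPM in MEFs and 180 to 214 CPM in mESCs. Of 10 markers of pluripotent cells, 9 were tested and all 9 were higher in mESCs. The other, Fut4, had 3 to 13 counts in every library and was not tested. Markers of other cells that the cultures could hold were also summed. The 6 blood cell markers held 16.7 to 53.6 CPM in MEFs and 11.8 to 24.9 CPM in mESCs, and the 6 endothelial markers 15.3 to 22.8 and 11.7 to 19.4 CPM. The 6 keratinocyte markers held 137 to 168 CPM in MEFs and 152 to 197 CPM in mESCs, the 6 markers of muscle precursors 21.2 to 30.6 and 19.3 to 46.6 CPM, and the 6 markers of neural precursors 142 to 244 and 89.1 to 99.2 CPM. The neural markers were split, with Nes and Tubb3, which hold most of the sum, lower in mESCs, Sox1 and Olig2 higher, Pax6 not past the test and Sox10 not tested. Their part in the results was not tested. In such bulk libraries, fewer cells of a type and less RNA per cell cannot be told apart.

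All 7 genes were lower in mESCs than in MEFs. The 3 E protein genes fell by 1.59 to 1.72 on the log2 scale, while the 4 Id genes fell by 1.87 to 3.49. Of all genes tested, 25.0% were lower in mESCs, 22.8% were higher and 47.9% changed in either direction. In each of the 7 genes every mESC library was below every MEF library, which held for 26.2% of the genes tested. All 7 also passed a test against a fold change of 2 in this direction, as 13.7% of the genes did.

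**Figure D1:**
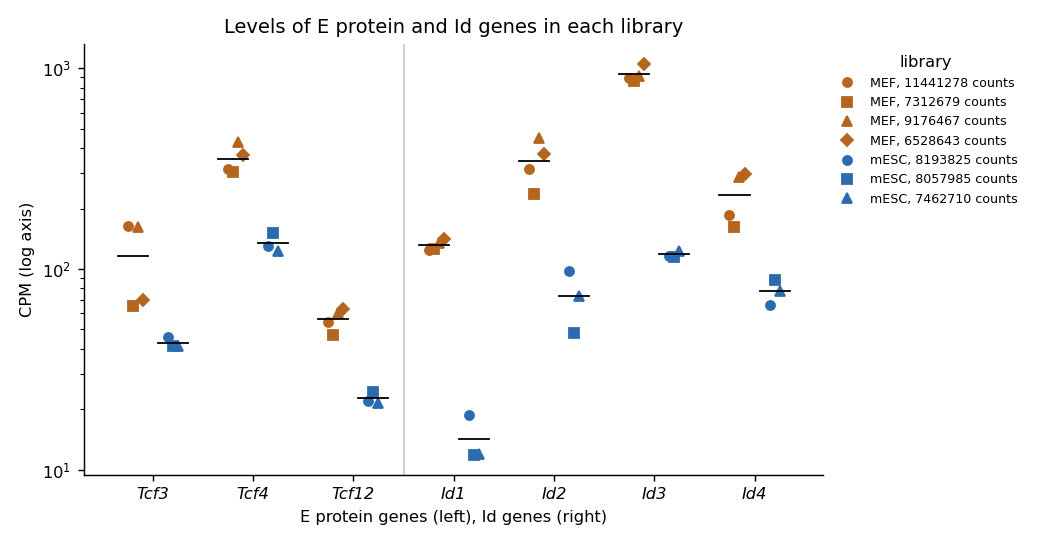
Level of each gene in CPM on a log axis, with 1 point for each of the 4 MEF libraries (brown) and 3 mESC libraries (blue) and a line at the mean of each cell type. In each of the 7 genes all mESC points lie below all MEF points, and Tcf3 splits the MEF libraries into a pair at 162 to 164 CPM and a pair at 65.4 to 69.7 CPM.

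Tcf4 encodes the E protein E2-2 and lies on chromosome 18 of GRCm38 (69343356 to 69689079). It held 313, 306, 429 and 371 CPM in the MEF libraries and 130, 150 and 123 CPM in the mESC libraries. Every MEF library held over 2 times the level of every mESC library. The mean was 355 ± 57.5 CPM in MEFs (n = 4) and 134 ± 14.1 CPM in mESCs (n = 3), and on the log2 scale mESCs differed by -1.68 (SE 0.166, edgeR adjusted p = 1.49e-05).

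Tcf12, which encodes the E protein HEB, lies on chromosome 9 (71842688 to 72111871) and had the fewest counts of the 7 genes in MEFs. It held 54.1, 46.6, 60.6 and 63.4 CPM in the MEF libraries and 22.0, 24.3 and 21.6 CPM in the mESC libraries. The libraries of each cell type lay close together, with the highest 1.36 times the lowest in MEFs and 1.13 times in mESCs. The fitted log2 difference was -1.59 (SE 0.175, edgeR adjusted p = 3.13e-05).

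Tcf3 (chromosome 10, 80409514 to 80433647) encodes E2A, with the splice forms E12 and E47, and was the only E protein gene whose MEF libraries fell apart. It held 164, 65.4, 162 and 69.7 CPM in the MEF libraries and 45.8, 41.3 and 41.1 CPM in the mESC libraries. The MEF libraries of 11441278 and 9176467 counts held over 2 times the level of the other MEF libraries, and these are also the deeper libraries. The mESC libraries were within 1.11 times of each other and below every MEF library. Over all MEF libraries the mean was 115 ± 55.3 CPM (n = 4) against 42.7 ± 2.62 CPM in mESCs (n = 3), and on the log2 scale mESCs differed by -1.72 (SE 0.350, edgeR adjusted p = 0.00209). The mean in MEFs thus lies between the pairs and is the level of no library.

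The mESC mean was 37.9% of the MEF mean for Tcf4 and 40.3% for Tcf12. For Tcf3 it was 37.0%, over MEF libraries that were not alike. The log2 ratio of Tcf4 to Tcf12 was 2.53 to 2.82 in MEFs and 2.49 to 2.61 in mESCs, so that the cell types overlapped. The ratio of Tcf3 to Tcf4 overlapped as well, at -2.41 to -0.93 in MEFs and -1.85 to -1.50 in mESCs.

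Id3 had the highest level of the 4 Id genes in both cell types, per kilobase of annotated exon as well as in CPM. It lies on chromosome 4 (136143497 to 136145755). Its level was 898, 863, 914 and 1056 CPM in the MEF libraries and 116, 115 and 123 CPM in the mESC libraries. With 933 ± 84.9 CPM in MEFs (n = 4) and 118 ± 4.55 CPM in mESCs (n = 3), the mESC mean was 12.7% of the MEF mean. The fitted log2 difference was -3.26 (SE 0.123, edgeR adjusted p = 2.46e-08), which had the smallest standard error of the 7 genes.

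Id1 (chromosome 2, 152736251 to 152737410) fell furthest. It held 125, 126, 134 and 141 CPM in the MEF libraries, the narrowest spread of the 7 genes in MEFs, with the highest library 1.13 times the lowest. The mESC libraries held 18.8, 11.8 and 11.9 CPM, from 154, 95 and 89 counts, and the library of 8193825 counts was the high one. The fitted log2 difference was -3.49 (SE 0.209, edgeR adjusted p = 4.00e-07), an 11.3-fold lower level in mESCs.

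Id2 (chromosome 12, 25093799 to 25097140) varied most between the mESC libraries. It held 315, 235, 449 and 374 CPM in MEFs and 97.8, 47.9 and 73.0 CPM in mESCs. The highest mESC library was again that of 8193825 counts, at 2.04 times the lowest. The cell types did not overlap, and the fitted log2 difference was -2.52 (SE 0.276, edgeR adjusted p = 3.05e-05).

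Id4 (chromosome 13, 48261228 to 48266026), known from neural and germ line stem cells, fell least of the Id genes and by a factor near that of the E protein genes. It held 186, 162, 287 and 297 CPM in MEFs and 65.9, 88.4 and 77.5 CPM in mESCs. The mESC mean was 33.1% of the MEF mean, and the fitted log2 difference was -1.87 (SE 0.234, edgeR adjusted p = 8.12e-05). Exons of 2 antisense genes, A330033J07Rik and Gm49291, overlap 253 of its 3849 exon bases, and because the strand setting of the counting is not given, reads there cannot be assigned. These genes themselves held 0 to 4 counts in any library. No other gene overlaps the exons of the other 6 members, and at most 0.329% of their 50-base sequences occur in other annotated genes.

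**Figure D2:**
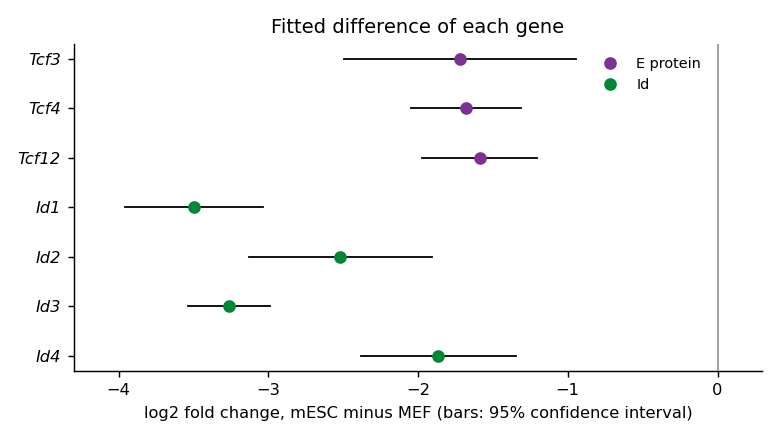
Fitted log2 fold change of mESCs relative to MEFs for each gene (point) with its 95% confidence interval (line), E protein genes in purple and Id genes in green. All 7 intervals lie below 0, and those of Id1 (-3.96 to -3.03) and Id3 (-3.53 to -2.99) lie below those of the 3 E protein genes.

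The 95% confidence intervals separated Id1 and Id3 from the rest of the Id family only in part. The interval of Id1 was -3.96 to -3.03, that of Id3 -3.53 to -2.99, that of Id2 -3.13 to -1.91 and that of Id4 -2.38 to -1.35. Among the E protein genes the intervals were -2.50 to -0.95 for Tcf3, -2.04 to -1.31 for Tcf4 and -1.98 to -1.20 for Tcf12. The interval of Id4 overlapped all of these, and that of Id2 overlapped all of them too.

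The promoters of 5 of the 7 genes were taken from the RefSeq table of GRCm38.p6. No entry for Id1 was found there, and Tcf4 was left out of the search, so its promoter was not examined. The 250 bases before each start were searched on both strands for the E-box CANNTG, for CAGGTG, the form of the E-box that E proteins share with the Zeb and Snai repressors, and for GGCGCC, a BMP-responsive element known from the Id1 promoter. They are shown because all members moved in the same direction, and the parts that lie in annotated exons are left out. Capitals mark CANNTG and GGCGCC.
Tcf3 (chr10:80433648-80433885, minus strand): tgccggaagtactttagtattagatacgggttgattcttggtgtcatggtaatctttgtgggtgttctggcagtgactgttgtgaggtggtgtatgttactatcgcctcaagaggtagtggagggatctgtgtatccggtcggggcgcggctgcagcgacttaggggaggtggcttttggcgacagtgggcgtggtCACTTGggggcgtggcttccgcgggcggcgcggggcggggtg
Tcf12 (chr9:72111872-72112069, minus strand): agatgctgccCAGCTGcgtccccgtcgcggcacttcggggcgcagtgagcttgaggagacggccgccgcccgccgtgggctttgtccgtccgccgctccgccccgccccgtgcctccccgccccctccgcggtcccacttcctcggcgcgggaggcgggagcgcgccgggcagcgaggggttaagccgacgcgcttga
Id2 (chr12:25096254-25096342, minus strand): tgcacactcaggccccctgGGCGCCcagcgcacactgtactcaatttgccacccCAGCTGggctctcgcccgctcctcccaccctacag
Id4 (chr13:48260866-48261115, plus strand): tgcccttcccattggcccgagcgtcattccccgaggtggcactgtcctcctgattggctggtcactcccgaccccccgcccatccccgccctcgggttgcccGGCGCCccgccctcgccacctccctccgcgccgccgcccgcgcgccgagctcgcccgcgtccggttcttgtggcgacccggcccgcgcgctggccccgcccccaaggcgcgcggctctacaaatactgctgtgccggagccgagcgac
The windows of Id2 and Id4 each held GGCGCC once, as did 9.59% of the 32851 promoter windows in the table. Id2 and Tcf3 each held 1 CANNTG, as did the window of Tcf12 shown, the first of 3 start sites listed for that gene, while 66.2% of all windows held at least 1. No window of the 5 genes held CAGGTG, which 17.2% of all windows held. The window of Id2 lies inside the GENCODE locus of that gene, so the bases before that locus were not searched. The window of Id3 held neither CANNTG nor GGCGCC and lies wholly in exons of the GENCODE annotation, so it is not shown. A match of letters is a description and does not mark a bound site.

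The balance of the families was taken as the mean log2CPM of the 3 E protein genes minus the mean log2CPM of the 4 Id genes. The change of this value between cell types does not depend on gene length or on the scaling of libraries. It was -1.02, -1.38, -1.13 and -1.60 in the MEF libraries and -0.27, 0.12 and -0.17 in the mESC libraries. Every mESC library was thus above every MEF library, and 1 mESC library was above 0. The mean was -1.28 ± 0.26 in MEFs (n = 4) and -0.11 ± 0.20 in mESCs (n = 3), a difference of 1.18 on the log2 scale toward E proteins. As a score over the chosen members it was given no test.

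The same direction was seen in summed counts. The E protein genes together held 532, 418, 651 and 504 CPM in MEFs and 198, 216 and 186 CPM in mESCs. The Id genes together held 1523, 1386, 1785 and 1868 CPM in MEFs and 299, 263 and 286 CPM in mESCs. There were 2.74 to 3.71 Id counts for each E protein count in MEFs and 1.22 to 1.54 in mESCs. Per kilobase of exon these ratios were 14.1 to 27.0 in MEFs and 6.76 to 8.04 in mESCs. The libraries count the 3-prime ends of transcripts, and the exon length of Tcf4 and Tcf12 includes all annotated isoforms. Division by exon length is thus not suited to these counts, and the ratio in counts is the one to read.

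**Figure D3:**
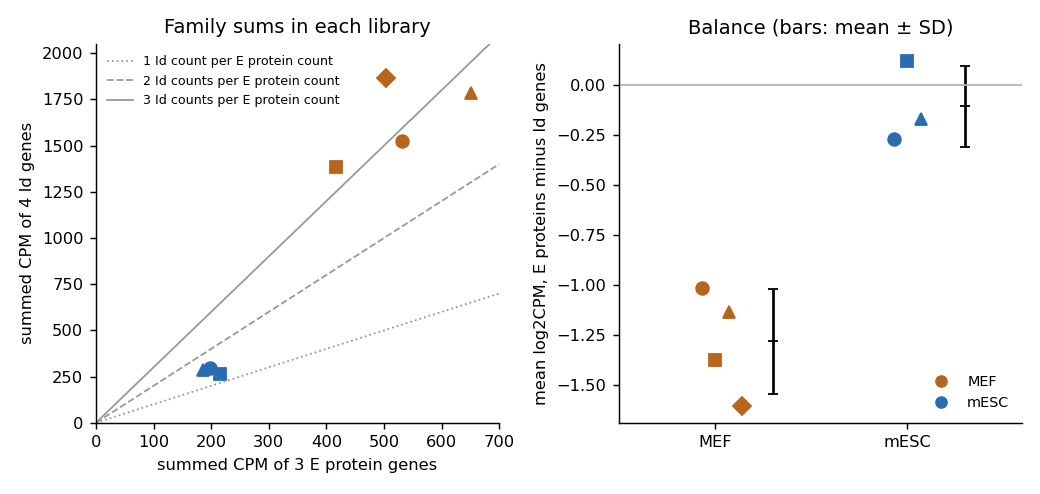
Left, summed CPM of the 4 Id genes against summed CPM of the 3 E protein genes with 1 point per library, and lines at 1, 2 and 3 Id counts per E protein count. Right, the balance in log2CPM with the mean and SD of each cell type. The MEF libraries lie between 2.74 and 3.71 Id counts per E protein count and the mESC libraries between 1.22 and 1.54.

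The shares of the E protein genes in their family overlapped between the cell types, and those of Id1, Id3 and Id4 in theirs did not. Tcf3 made up 30.9, 15.7, 24.9 and 13.8% of the E protein counts in the MEF libraries and 19.2 to 23.1% in mESCs. Tcf4 made up 67.9 ± 6.96% of the E protein counts in MEFs (n = 4) and 67.2 ± 2.07% in mESCs (n = 3). Id3 made up 51.2 to 62.2% of the Id counts in MEFs and 39.0 to 43.7% in mESCs. Id4 took the other direction, with 11.7 to 16.1% in MEFs and 22.1 to 33.6% in mESCs. Id1 held 7.53 to 9.12% in MEFs and 4.17 to 6.29% in mESCs, and the shares of Id2 overlapped, at 17.0 to 25.2% and 18.2 to 32.7%.

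**Figure D4:**
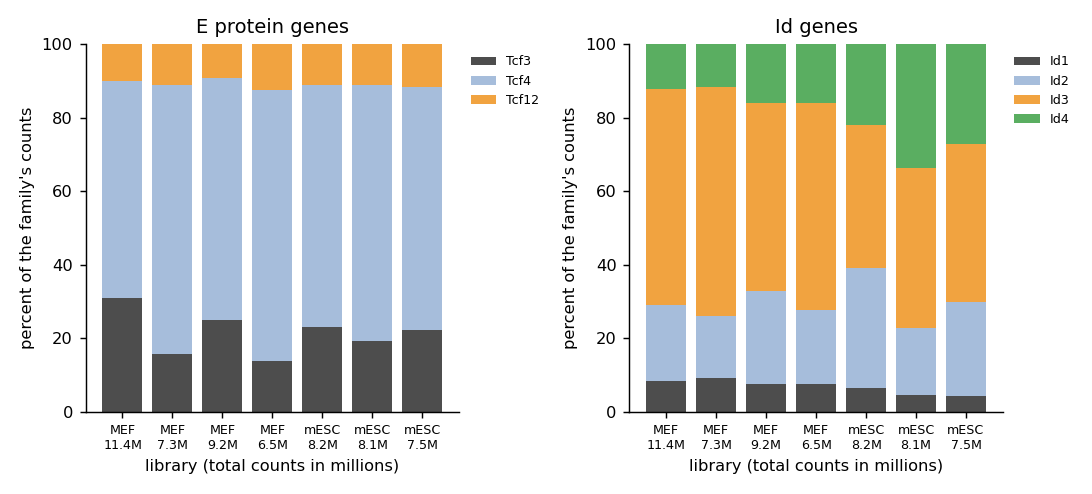
Percent of the counts of the E protein family (left) and of the Id family (right) held by each gene, with 1 bar per library and the total counts below it. Tcf4 holds 58.9 to 73.6% of E protein counts in every library, while the share of Id4 is 11.7 to 16.1% in MEF bars and 22.1 to 33.6% in mESC bars.

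The libraries count 3-prime ends, so CPM is the unit suited to comparing genes. The order of the levels differed per kilobase of exon. In CPM per kilobase of exon in MEFs it ran from Id3 (521 ± 47.4, n = 4) through Id2 (141 ± 37.3), Id1 (114 ± 6.48), Id4 (60.6 ± 17.9), Tcf3 (28.6 ± 13.7) and Tcf4 (13.0 ± 2.10) to Tcf12 (3.62 ± 0.481). Of the neighbours in this order, only the libraries of Id2 and Id1 overlapped. In mESCs Id1 fell behind Id4, and the order was Id3 (66.0 ± 2.54, n = 3), Id2 (29.9 ± 10.2), Id4 (20.1 ± 2.92), Id1 (12.2 ± 3.45), Tcf3 (10.6 ± 0.649), Tcf4 (4.91 ± 0.515) and Tcf12 (1.46 ± 0.0958). There the libraries of Id2 overlapped with those of Id4, and those of Id1 with those of Tcf3. In CPM, with no division by length, Tcf4 was next after Id3 in MEFs and overlapped with Id2, and in mESCs Tcf4 had the highest mean, overlapping with Id3, and Id1 the lowest. The low place of Tcf4 and Tcf12 per kilobase thus rests on their annotated exon lengths of 27382 and 15529 bases and does not rank transcript numbers. In CPM the MEF mean was 355 for Tcf4 and 132 for Id1.

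Ratios between single E protein and Id genes separated the cell types for Id1 and Id3 with each E protein gene. The log2 ratio of Tcf4 to Id3 was -1.52 to -1.09 in MEFs and -0.0047 to 0.388 in mESCs, and that of Tcf4 to Id1 was 1.27 to 1.67 and 2.78 to 3.64. Ratios to Id4 overlapped between the cell types for all 3 E protein genes. The ratio of Tcf4 to Id4 was 0.318 to 0.914 in MEFs and 0.664 to 0.981 in mESCs.

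Among factors with top-ranked motifs or footprints in its ATAC-seq data, the study looked for a level above 2 log2CPM in mESCs that was higher than in MEFs. Here the expression part alone was applied to the 7 genes, without the motif step. All 7 genes were above 2 log2CPM in mESCs, from 3.66 for Id1 to 6.91 for Tcf4. That 0 of the 7 were higher than in MEFs restates that all 7 were lower. By log2CPM the MEF means were 5.93 for Tcf12 to 9.98 for Id3.

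The Zeb and Snai repressors bind the same CAGGTG form of the E-box. All 4 tested were lower in mESCs, as were 25.0% of all genes tested. The median log2 fold change of the 4 was -5.60 where the median of all tested genes was 0.04. Zeb1 fell least, from 73.2 ± 4.39 (MEFs, n = 4) to 34.3 ± 10.3 CPM (mESCs, n = 3), and did not pass the test against a fold change of 2 (adjusted p = 0.0604, edgeR). Zeb2 had 454 to 783 counts in the MEF libraries and 8 to 29 in mESCs, and Snai2 638 to 893 and 8 to 22. Snai1 had 77 to 159 counts in MEFs and 4, 0 and 1 in mESCs. Snai3, with 0 counts in every MEF library and 27, 9 and 17 in mESCs, had too few counts to be tested.

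Of 38 tissue-restricted partners of E proteins, 12 were tested, 7 were higher and 4 lower in mESCs. Among all genes tested, 22.8% were higher and 25.0% lower. Neurod1, Neurog1, Olig1 and Olig2 entered the test through mESCs alone, and Scx and Hand2 through MEFs alone. The counts per direction thus depend on the filter. The median log2 fold change of the 12 was 2.92, and 2.42 with the 6 genes that had at most 3 counts in each library of one cell type placed at that limit. The mesenchymal factors Twist1 and Twist2 were lower. Twist1 held 77.3 ± 16.0 CPM in MEFs (n = 4) and 7.54 ± 0.340 CPM in mESCs (n = 3), with a log2 fold change of -3.63, and Twist2 had 567 to 1057 counts in MEFs and 1 to 6 in mESCs. Scx, a tendon factor, had 25 to 75 counts in MEFs and 2, 1 and 0 in mESCs. Hand2 was the other gene that fell. The 3 genes with the largest rise were the neural factors Neurod1, Neurog1 and Olig2. Neurod1 had 250, 134 and 285 counts in mESCs and at most 1 in a MEF library, Olig2 had 175, 242 and 258 and at most 2, and Neurog1 had 25, 13 and 33 and 0 in every MEF library. The other genes that rose were Olig1, the mesodermal factor Tcf15 (0.623 ± 0.556 CPM in MEFs and 51.5 ± 7.34 CPM in mESCs), Msc (1.55 ± 1.15 and 13.8 ± 3.99 CPM) and Ascl2 (0.530 ± 0.752 and 6.30 ± 1.64 CPM). The markers Sox1 and Olig2 of neural precursors rose too, while Nes and Tubb3 fell, and their part was not tested. The other 26 partners, among them Myod1 with at most 16 counts in a library, had too few counts to be tested.

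BMP and Smad genes, the known input to Id genes, were mostly lower in mESCs, and their part in the Id levels was not tested. Of 20 listed genes 15 were tested, 9 were lower and 2 higher, with a median log2 fold change of -1.05. Of all genes tested, 25.0% were lower and 22.8% higher. The summed level of the listed genes overlapped between the cell types, at 396 to 419 CPM in MEFs and 316 to 444 CPM in mESCs. The ligand Bmp4 fell from 51.4 ± 16.0 (MEFs, n = 4) to 10.1 ± 3.18 CPM (mESCs, n = 3), a log2 difference of -2.63 (edgeR adjusted p = 7.86e-05). Smad9, with 8 to 37 counts in MEFs and 2 to 7 in mESCs, and Acvrl1, a type I receptor with 36 to 90 and 0 to 26 counts, were also lower. The difference of Acvrl1 was -2.53 on the log2 scale, was -4.10 without the mESC library of 8193825 counts, and did not pass the test without that of 8057985 counts (edgeR adjusted p = 0.0726). The higher genes were Acvr2b, a type II receptor that rose from 16.0 ± 3.51 to 179 ± 52.0 CPM (n = 4 and 3), and the ligand Bmp7, which had 1 to 11 counts in MEFs and 34 to 57 in mESCs.

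Secreted BMP antagonists and Smad inhibitors were mostly lower in mESCs. Of 13 tested genes 10 were lower and 1 higher, with a median log2 fold change of -1.197. The shares over all genes tested were 25.0% lower and 22.8% higher. Without scaling beyond library size the number changed was 7 in place of 11. The antagonists Grem1 and Fst had log2 fold changes of -5.11 and -3.89. The inhibitory Smad7 was the higher gene, at 55.0 ± 13.8 CPM in MEFs (n = 4) and 119 ± 36.1 CPM in mESCs (n = 3). Its log2 difference was 0.82 (edgeR adjusted p = 0.0264), the libraries overlapped, and the call was lost without the MEF library of 9176467 or 6528643 counts and without the mESC library of 8193825 or 8057985 counts (edgeR adjusted p = 0.0518 to 0.135).

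The cofactors of E proteins were split. Of 11 tested, 4 were higher and 4 lower in mESCs, with a median log2 fold change of -0.09. Over all genes tested, 22.8% were higher and 25.0% lower. The acetyltransferase genes Ep300, Kat2b and Kat2a were higher, with log2 fold changes of 1.25, 1.14 and 0.77, none of which passed the test against a fold change of 2. Crebbp, the paralog of Ep300, was lower, at 194 ± 36.3 CPM in MEFs and 122 ± 14.04 CPM in mESCs (edgeR adjusted p = 0.00124). Runx1t1, which encodes the corepressor ETO, fell from 184 ± 42.0 (MEFs, n = 4) to 22.9 ± 9.75 CPM (mESCs, n = 3), while its family member Cbfa2t2 rose from 78.7 ± 14.6 to 162 ± 11.2 CPM (edgeR adjusted p = 0.00405). Lmo4 had a log2 fold change of -2.43, and Ldb2 had 277 to 726 counts in MEFs and 1, 2 and 0 in mESCs.

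**Figure D5:**
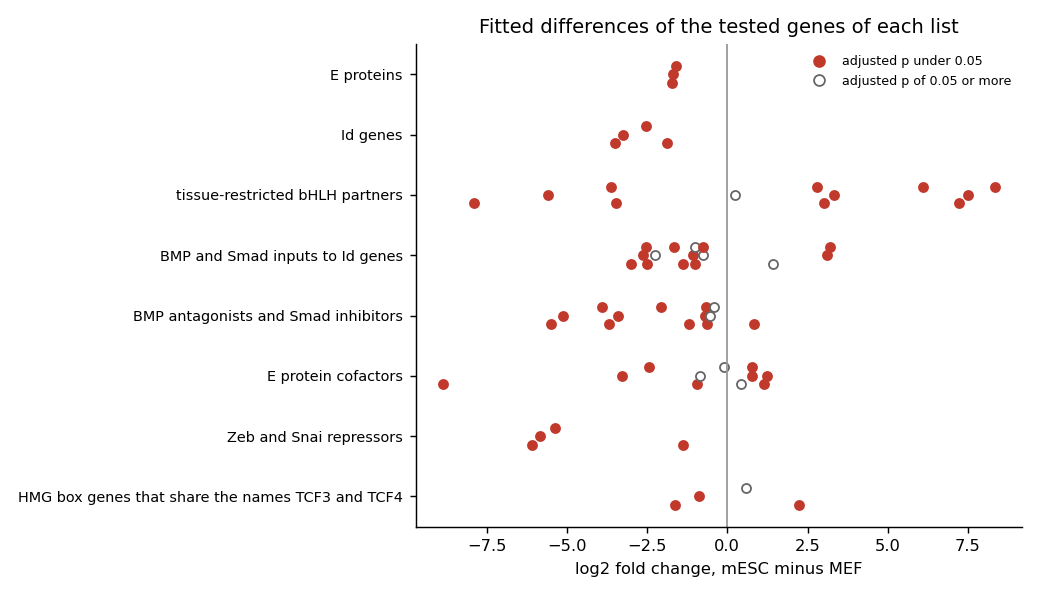
Fitted log2 fold change of mESCs relative to MEFs for the tested genes of each list, with 1 point per gene, filled in red where the adjusted p was under 0.05. All points of the E protein, Id and Zeb and Snai rows lie left of 0, while the tissue-restricted partners lie on both sides. Fitted values of genes with at most 3 counts in each library of one cell type depend on the prior count of the fit.

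In stem cell work the names TCF3 and TCF4 are also used for the HMG box factors of the WNT pathway encoded by Tcf7l1 and Tcf7l2, which are other genes. Tcf7l1 held 69.1 ± 18.6 CPM in MEFs (n = 4) and 45.4 ± 3.997 CPM in mESCs (n = 3), with a log2 difference of -0.89 (edgeR adjusted p = 0.00680). Tcf7l2 held 458 ± 70.7 and 180 ± 46.4 CPM, with a log2 difference of -1.62 (edgeR adjusted p = 9.09e-05). Tcf7 was higher in mESCs, at 16.8 ± 5.98 CPM against 2.87 ± 1.43 CPM (n = 3 and 4). Lef1, with 9.18 ± 6.32 CPM in mESCs and 4.97 ± 2.27 CPM in MEFs (n = 3 and 4), did not pass the test (adjusted p = 0.456, edgeR).

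The genes most like each member were found by Pearson's r of log2CPM over the 7 libraries, among 9354 other genes with a mean of at least 10 CPM. The points share 2 cell types, and r is given as a description. For Id1 these were Rsu1 and Serpinh1 (r of 0.9999 and 0.9994), for Id3 Lrrc17 and Prrx1 (0.9997 and 0.9995), for Id2 Irx3 and Eef2k (0.9961 for each) and for Id4 Kidins220 and 1700025G04Rik (0.9978 and 0.9973). For Tcf4 they were Zfp362 and Map1lc3a (0.9986 and 0.9981), and for Tcf12 Golim4 and Wipi1 (0.9988 and 0.9983). Tcf3 had the lowest values, 0.9819 with Ptk7 and 0.9797 with Sec61a1. Ptk7, a receptor-like protein of planar cell polarity, held 117, 48.5, 153 and 37.1 CPM in the MEF libraries, the same split of the libraries as in Tcf3.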

How the data were processed

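RNA-seq gene counts of 4 MEF and 3 mESC libraries were used. The libraries were 3-prime biased with molecular identifiers. Alignment by the authors was to mm10 (STAR). Identifiers were collapsed (Je), reads mapped once were assigned to exons (featureCounts), and raw counts were deposited. The annotation and strand setting are not given in the sources used here. Column names give the cell type but not the sample, so libraries were named by their totals, and 0 columns were left unused. Symbols in the form of dates (26 rows, 0.249% of counts) stayed in the totals.

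The quasi-likelihood test of edgeR 4.0.16 (run in R 4.3.3, limma 3.58.1) was fitted to all 7 libraries after filterByExpr and TMM. The standard error is the size of the log2 fold change divided by the root of F. log2CPM had a prior count of 2, and CPM was taken over library totals. A floor of 3 counts was 0.262 to 0.460 CPM and covers counting error only. Replicate libraries differed beyond counting noise (chi-square of 15.6 to 31.1 per degree of freedom). The code was tested on simulated data. Loci and exon lengths are from GENCODE M21 on GRCm38, promoters from RefSeq on GRCm38.p6.

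The members and lists were chosen with earlier results of these data known. Named were the members, the 4 HMG box genes, the 5 Zeb and Snai genes, up to 3 genes with the largest and 3 with the smallest log2 fold change among those changed in each other list, and the 2 genes most like each member. A gene that this rule names is not reported here. Bmp7, Smad7 and others fell under this rule, and Myod1, Fut4, Crebbp, Cbfa2t2, Hand2, Olig1, Tcf15, Msc, Ascl2 and the neural markers were named after their values were seen. Alternatives were DESeq2 1.42.0, other scalings and filters, a test against a fold change of 2, other summaries of the balance and leaving out each library.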

Additional observations from a re-analysis of the deposited data

How the results depend on the processing

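All 7 genes were lower in mESCs and changed in each of the 13 alternatives set for them, which were DESeq2, no scaling, DESeq2's size factors in edgeR, no filter, a stricter filter, the test against a fold change of 2 and leaving out each library. The largest adjusted p was 0.0351 (edgeR, Tcf3 against a fold change of 2). Leaving out 1 library gave log2 fold changes of -1.92 to -1.50 for Tcf3 and -3.75 to -3.38 for Id1. The balance difference of 1.18 was 1.15 as a ratio of summed CPM, 1.35 per kilobase and 0.92 without the least abundant gene of each family.

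The test against a fold change of 2 left 3991 of 7938 genes, 1714 higher and 2277 lower, as a stricter test. It left 6 of 11 BMP and Smad inputs, 6 of 11 antagonists and inhibitors and 3 of 8 cofactors. Without scaling, 7 of the 11 antagonists and inhibitors were changed, and 60.8% of all calls were higher in mESCs in place of 47.7%. Of 646 values of 50 named genes under an alternative, 629 kept their call and direction, 17 lost the call and 0 turned direction. No paired analysis was possible because the columns do not carry the sample numbers. The depth limits genes with few counts in a cell type, such as Snai1, Neurog1 and Ldb2.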

Other observations

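The split of the MEF libraries in Tcf3 was rare among genes with a mean of at least 10 CPM in MEFs. It was looked for after it had been seen, and other divisions of the MEF libraries into pairs were not counted. Of 8737 genes with a mean of at least 10 CPM in MEFs, 7 (0.0801%) were at least 2 times higher in both deeper MEF libraries than in both others, and they were Tcf3, Ptk7, Calm3, Prcc, Ssc4d, Gm11532 and Gm13340. The opposite split was seen in 5 genes (0.0572%). Tcf4 and Tcf12 did not show it. Whether depth, the embryos or the cultures set the split was not tested.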
